A study of Rattus norvegicus with 20 samples.

Results

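Followed here were 9 genes for enzymes of the citric acid cycle, and 7 further subunits of the cycle that were measured are described below. The 9 genes encode citrate synthase (Cs), isocitrate dehydrogenases (Idh2, Idh3a and Idh3g), alpha-ketoglutarate dehydrogenase (Ogdh and Dlst), succinate-CoA ligase (Suclg1 and Sucla2) and malate dehydrogenase (Mdh2). They were followed in the right ventricle of rats with chronic pulmonary embolism (PE). All probe sets were taken whose gene symbol in the platform annotation was 1 of these 9 symbols and no other, which gave 13 of the 31042 probe sets tested and 9 of the 14217 genes they represented. Cs had 4 probe sets, Sucla2 had 2 and each other gene had 1. A probe set is a group of short probes on the array that read 1 transcript.

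RNA was measured on 20 Affymetrix arrays, 1 for each tissue sample. Male Sprague Dawley rats of about 350 g were injected through the right jugular vein. PE rats received 2000000 polystyrene microspheres of 25 micron for every 100 g of body weight in 0.01% Tween-20, and vehicle rats received 0.01% Tween-20 alone. After 6 weeks the outflow tract (the base of the right ventricle) and the apex were separated, giving PE outflow, vehicle outflow, PE apex and vehicle apex groups of 5 arrays each. A text field of the sample labels described the vehicle injection for all 20 samples, so the groups follow the titles, which separate PE from vehicle. The vehicle volume was 0.15 ml for every 100 g in the sample labels and 0.01 ml in the text on the design. The samples were pieces of whole muscle wall, so every signal is an average over all cells in the piece.

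The citric acid cycle runs in the mitochondrial matrix. It oxidises the acetyl groups that come from fatty acids, pyruvate and ketone bodies to carbon dioxide, and passes the electrons on as NADH and FADH2 to the respiratory chain. Heart muscle, which contracts without pause, is among the tissues richest in mitochondria and in these enzymes, and citrate synthase is widely used as a measure of mitochondrial content. All 9 genes are encoded in the nucleus.

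In GRCr8, the rat assembly of the RefSeq tables used here, the genes lie on 9 different chromosomes. Cs is at chr7:1348389-1374624, Idh2 at chr1:143447925-143467248, Idh3a at chr8:63867882-63887223 and Idh3g at chrX:156666573-156675482. Ogdh is at chr14:85363949-85431405, Dlst at chr6:110489576-110512841 and Suclg1 at chr4:106866329-106895686. Sucla2 is at chr15:55161894-55215031 and Mdh2 at chr12:26530886-26543841. RefSeq's table of promoters held a start site for 8 of the 9, Idh3a being the gene not in it, and 3 motifs were sought on both strands of the 250 bases before each start. CCAAT, the core of a box bound by nuclear factor Y, was present in 4 of the 8 (Cs, Idh2, Idh3g and Ogdh) and in 34.02% of all 33469 promoters of the table. AAGGTCA, the core of the element read by oestrogen-related receptors, was in 0 of the 8 and in 3.99% of all promoters, and GCGCATG, the core of the element read by NRF1, was in 0 of the 8 and in 3.26%. The search covered those exact letters in that window only. The 4 promoters with a CCAAT are printed to show where the motif lies. The 4 genes without one in this window (Dlst, Suclg1, Sucla2 and Mdh2) also fell in PE outflow, by 1.40, 1.46, 1.15 and 1.28 on the log2 scale, and no relation of the motif to the change was tested. Each is written 5′ to 3′ along the gene's own strand, ending at the base before the table's start, which for Ogdh lies inside the annotated gene, with CCAAT or its complement ATTGG in capitals.

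Cs, chr7:1348139-1348388, plus strand: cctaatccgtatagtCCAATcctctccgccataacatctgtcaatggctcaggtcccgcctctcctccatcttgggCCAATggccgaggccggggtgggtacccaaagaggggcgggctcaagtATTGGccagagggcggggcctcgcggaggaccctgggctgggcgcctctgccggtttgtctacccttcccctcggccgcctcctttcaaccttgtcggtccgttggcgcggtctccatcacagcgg
Idh2, chr1:143467249-143467498, minus strand: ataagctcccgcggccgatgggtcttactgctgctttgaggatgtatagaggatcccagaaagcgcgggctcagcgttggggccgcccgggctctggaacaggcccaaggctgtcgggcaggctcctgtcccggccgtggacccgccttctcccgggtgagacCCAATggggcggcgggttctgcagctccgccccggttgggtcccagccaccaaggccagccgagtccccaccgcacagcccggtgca
Idh3g, chrX:156675483-156675732, minus strand: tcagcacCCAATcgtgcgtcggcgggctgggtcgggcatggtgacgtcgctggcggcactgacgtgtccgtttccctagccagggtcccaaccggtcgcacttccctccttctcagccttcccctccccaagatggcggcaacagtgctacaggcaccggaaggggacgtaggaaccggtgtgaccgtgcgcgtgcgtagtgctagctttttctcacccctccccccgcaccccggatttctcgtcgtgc
Ogdh, chr14:85363781-85364030, plus strand: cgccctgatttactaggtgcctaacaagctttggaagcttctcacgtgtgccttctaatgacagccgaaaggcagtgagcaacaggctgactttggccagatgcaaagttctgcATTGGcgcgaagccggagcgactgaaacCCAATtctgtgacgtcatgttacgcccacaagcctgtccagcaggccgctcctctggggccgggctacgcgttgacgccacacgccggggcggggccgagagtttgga

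The first CCAAT of Cs began 235 bases before the start, the second 174 and the complementary match 126 bases before it. In Idh2 the match began 87 bases before the start and in Idh3g 243 bases before it, and in Ogdh the complementary match began 136 and the direct match 108 bases before the start.

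All 20 arrays had been scaled to a trimmed mean signal of 500.2, and their median signals lay between 123 and 159. The control probe sets for GAPDH, a glycolytic enzyme whose ratio of 3′ to 5′ signal serves as a measure of RNA quality, gave ratios of 1.71, 6.12, 1.70, 2.20 and 2.34 in PE outflow replicates 1 to 5, against 1.38 to 1.66 in vehicle outflow. The ratios were 1.47 to 1.67 in PE apex, against 1.44 to 1.83 in vehicle apex. In outflow, 34.5% of the 31042 probe sets differed between PE and vehicle at an adjusted p under 0.05, while in apex the share was 0.0129%, or 4 probe sets.

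All 9 cycle genes fell in PE outflow relative to vehicle outflow. By the model's log2 fold changes, their signals stood at 35.1% of vehicle outflow for Cs and at 51.2% for Idh2, with the other 7 genes between these. Both ends draw on PE outflow replicate 2, with the GAPDH ratio of 6.12, where Cs was lowest and Idh2 highest of the 9. Against the vehicle outflow mean they were at -1.92 and 0.27 on the log2 scale there. In replicates 1 and 3 Cs was at -1.04 and -1.02, and Idh2 at -0.92 and -0.99. Among all genes, 18% fell in the same comparison, and among the 834 genes with a mean log2 signal above 12, to which all 9 belong, 58.9% fell. The model shares 1 spread over the 4 groups, but the PE outflow arrays varied more. The SD of the median log2 signal of the 9 genes was 0.373 in PE outflow. It was 0.057 in vehicle outflow, 0.061 in PE apex and 0.095 in vehicle apex. The SEs and adjusted p-values for outflow thus understate the spread of PE outflow. Under other settings the highest adjusted p in limma was 0.000161 for Suclg1, 0.0023 for Idh3a and 0.0603 for Idh2. In apex 0 of the 9 genes passed the test. In a bulk sample, fewer cells of a type and less RNA per cell cannot be told apart.

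**Figure D1:**
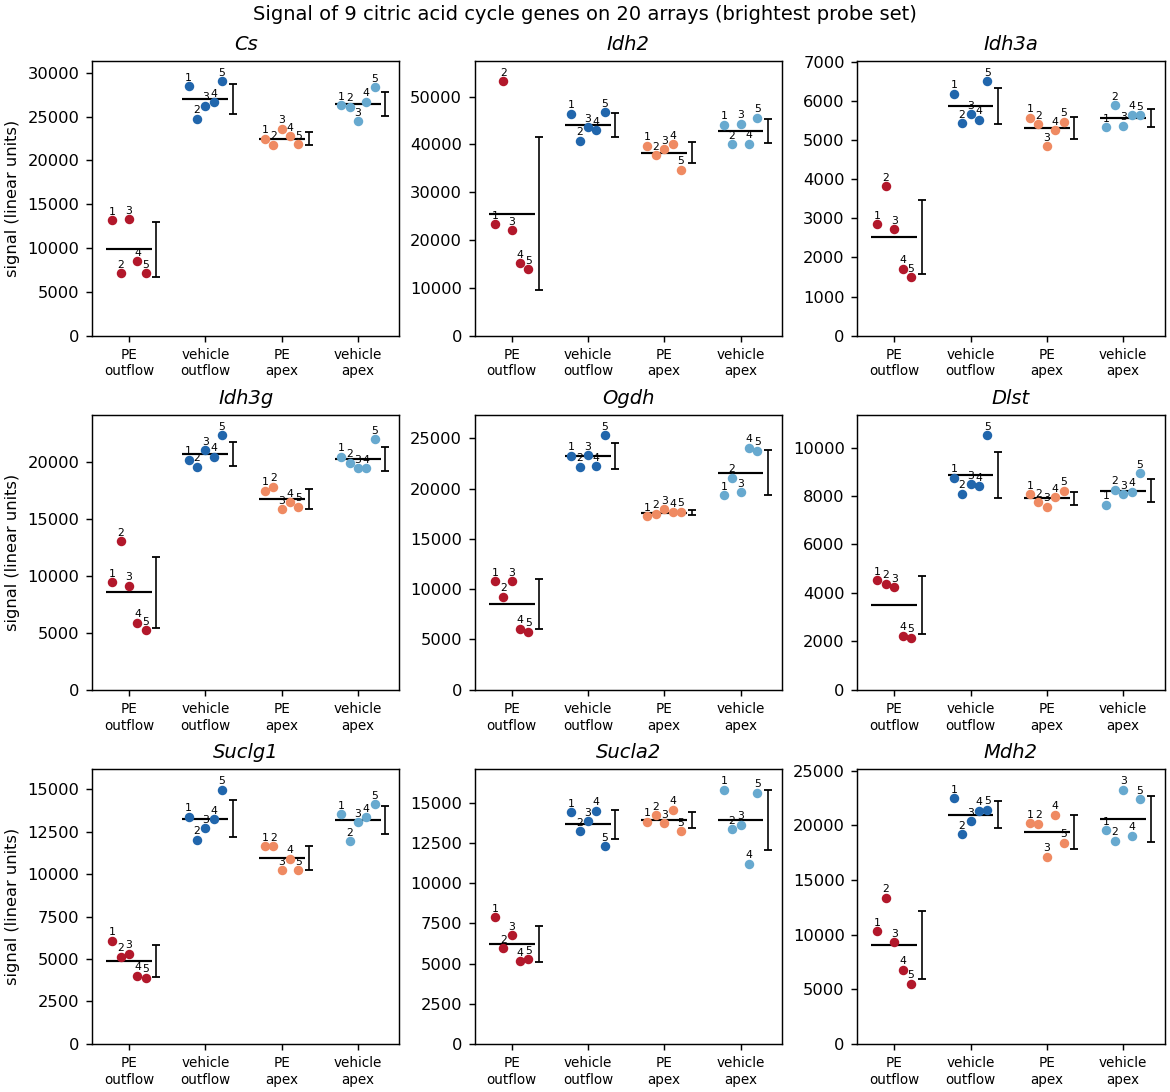
Signal (linear units) of the brightest probe set of each of the 9 genes on 20 arrays, with replicate numbers beside the points, the mean of 5 as a line and the SD as a bar. The PE outflow arrays lie below all vehicle outflow arrays for 8 genes, and for Idh2 replicate 2 lies above them at 53159.

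Citrate synthase condenses acetyl-CoA with oxaloacetate and so opens the cycle. Its brightest probe set (1375295_at) had signals of 13158, 7140, 13259, 8520 and 7140 in PE outflow replicates 1 to 5, against 28473, 24753, 26269, 26619 and 29020 in vehicle outflow. Every PE array lay below every vehicle array, as on 9.98% of all probe sets, and PE replicates 1 and 3 were the highest of their group. The share of such separations among genes with a mean log2 signal above 12 was not counted. The means were 9843 ± 3124 in PE outflow and 27027 ± 1730 in vehicle outflow (SD, n = 5 each), a log2 fold change of -1.51 ± 0.16 (SE of the model; adjusted p = 6.59e-07). The second probe set (1384201_at) read 2955, 649, 2138, 1097 and 941 in PE outflow, against 6405, 6410, 6362, 6271 and 7366 in vehicle outflow. That is a log2 fold change of -2.28 ± 0.28 (adjusted p = 3.96e-06), which became -1.38 when only PE outflow replicates 1 and 3, the PE outflow arrays with a GAPDH ratio like that of the other groups, were kept. Probe set 1369967_at read 1295 to 2306 in PE outflow, against 4874 to 5846 in vehicle outflow, a log2 fold change of -1.67 ± 0.15 (adjusted p = 2.04e-07). The groups did not overlap on any of these 3 probe sets. The last Cs probe set (1396453_at) was dim, with 50 to 198 in PE outflow and 96 to 221 in vehicle outflow, and its log2 difference of -0.58 ± 0.29 did not pass the test (adjusted p = 0.135).

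Isocitrate is oxidised by separate enzymes. Idh2 is the mitochondrial enzyme that makes NADPH, while the Idh3 enzyme makes NADH and is built from a catalytic alpha subunit (Idh3a) and beta and gamma subunits (Idh3b and Idh3g). Idh2 had signals of 23296, 53159, 22090, 15203 and 13889 in PE outflow, against 46384, 40718, 43608, 42934 and 46722 in vehicle outflow. Here 4 PE arrays lay below all vehicle arrays, and replicate 2, the array with the GAPDH ratio of 6.12, lay above all of them. The log2 fold change was -0.97 ± 0.24 (adjusted p = 0.00327), -1.28 ± 0.13 without replicate 2 (adjusted p = 8.06e-07), and -1.49 ± 0.22 with the GAPDH ratio as a covariate (adjusted p = 4.63e-05). Under quantile normalisation it was -0.63 ± 0.16 (adjusted p = 0.00391). Without PE outflow replicates 4 and 5, the 2 arrays with the lowest signals, it was -0.55 ± 0.20 and did not pass (adjusted p = 0.0603). These 2 arrays were chosen after their values were seen.

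Idh3a read 2844, 3824, 2730, 1714 and 1497 in PE outflow, against 6188, 5438, 5670, 5523 and 6505 in vehicle outflow. Its log2 fold change was -1.29 ± 0.18 (adjusted p = 1.71e-05). Idh3g read 9429, 13061, 9150, 5878 and 5240 in PE outflow, against 20225, 19604, 21028, 20483 and 22348 in vehicle outflow. For both subunits every PE array was below every vehicle array, replicate 2 was the highest PE array and replicates 4 and 5 were the lowest. The log2 fold change of Idh3g was -1.35 ± 0.18 (adjusted p = 7.7e-06).

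Ogdh and Dlst encode the dehydrogenase and the succinyltransferase of the complex that turns alpha-ketoglutarate into succinyl-CoA. Ogdh read 10772, 9249, 10810, 6050 and 5782 in PE outflow, against 23261, 22185, 23343, 22204 and 25287 in vehicle outflow, a log2 fold change of -1.50 ± 0.16 (adjusted p = 7.95e-07). Dlst read 4529, 4373, 4242, 2227 and 2151 in PE outflow, against 8758, 8103, 8482, 8416 and 10501 in vehicle outflow. The log2 fold change of Dlst was -1.40 ± 0.18 (adjusted p = 7.22e-06). Neither gene's groups overlapped, and replicates 4 and 5 stood apart from the other PE arrays at the low end of both.

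Succinate-CoA ligase, which splits succinyl-CoA and yields ATP or GTP, consists of a shared alpha subunit (Suclg1) with an ADP-binding beta subunit (Sucla2) or a GDP-binding one (Suclg2). Suclg1 read 6083, 5133, 5308, 4007 and 3904 in PE outflow, against 13378, 12028, 12706, 13249 and 14989 in vehicle outflow. It had the smallest adjusted p of the 9 genes, 8.74e-08, at a log2 fold change of -1.46 ± 0.12. Sucla2 read 7876, 5961, 6780, 5154 and 5272 in PE outflow, against 14412, 13256, 13871, 14511 and 12296 in vehicle outflow. No PE array reached the lowest vehicle array for either subunit, and the log2 fold change of Sucla2 was -1.15 ± 0.12 (adjusted p = 1.1e-06). A second Sucla2 probe set (1381671_at) averaged 34.8 ± 10.2 in PE outflow and 36.8 ± 21.0 in vehicle outflow, with a log2 difference of 0.01 ± 0.29 (adjusted p = 0.981).

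Mdh2 regenerates oxaloacetate from malate and closes the cycle. It read 10335, 13391, 9289, 6780 and 5489 in PE outflow, against 22484, 19220, 20415, 21343 and 21460 in vehicle outflow. The groups did not overlap, replicate 2 was again the highest PE array, and the log2 fold change was -1.28 ± 0.18 (adjusted p = 1.27e-05). Counted over probe sets, 11 of 13 fell in outflow, against 14.9% of all probe sets, and the 2 that did not pass were the dim ones of Cs and Sucla2.

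In apex the same signals differed little between PE and vehicle. The log2 differences ran from -0.29 for Ogdh to 0.01 for Sucla2, with a median of -0.16 over the 9 genes against 0.00 over all genes. None passed the adjusted threshold in limma (adjusted p of 0.623 to 0.995), and 1 gene, Suclg1, had an unadjusted p under 0.05 (0.0357), against 7.47% of all probe sets. For 4 of the 9 genes the PE apex arrays nonetheless all lay below the vehicle apex arrays, an arrangement seen in 1.5% of all probe sets. Its share among genes with a mean log2 signal above 12, to which all 9 belong, was not counted. Cs read 22473, 21803, 23644, 22758 and 21826 in PE apex, against 26286, 26121, 24509, 26681 and 28343 in vehicle apex, a log2 difference of -0.23 (95% interval -0.55 to 0.10). Idh3g read 17482, 17856, 15891, 16475 and 16103 in PE apex, against 20486, 19944, 19478, 19481 and 22015 in vehicle apex, a difference of -0.27 (-0.64 to 0.10). Ogdh and Suclg1 are the other 2 genes whose apex groups were separate. Ogdh read 17261, 17513, 17968, 17632 and 17699 in PE apex, against 19320, 21080, 19662, 24060 and 23787 in vehicle apex, a difference of -0.29 (-0.61 to 0.04). Suclg1 read 11647, 11648, 10219, 10898 and 10246 in PE apex, against 13551, 11931, 13048, 13370 and 14122 in vehicle apex, a difference of -0.27 (-0.52 to -0.02). The model's spread is shared with the more variable PE outflow arrays. Fitted on the apex arrays alone, the adjusted p-values were 0.297 to 0.988, and still none of the 9 passed.

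The other 5 genes overlapped between the apex groups. Idh2 averaged 38247 ± 2162 in PE apex and 42830 ± 2562 in vehicle apex (SD, n = 5 each), with 4 of 5 PE arrays below all vehicle arrays. Idh3a averaged 5313 ± 283 in PE apex and 5579 ± 233 in vehicle apex. Dlst averaged 7912 ± 266 in PE apex and 8221 ± 467 in vehicle apex. The log2 differences were -0.07 for Idh3a and -0.05 for Dlst. Sucla2 averaged 13930 ± 515 in PE apex and 13949 ± 1889 in vehicle apex, the widest vehicle spread of the 9 genes relative to the mean. Mdh2 averaged 19387 ± 1562 in PE apex and 20589 ± 2120 in vehicle apex. The 95% intervals of these 5 differences all spanned 0 and reached no lower than -0.66, for Idh2.

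**Figure D2:**
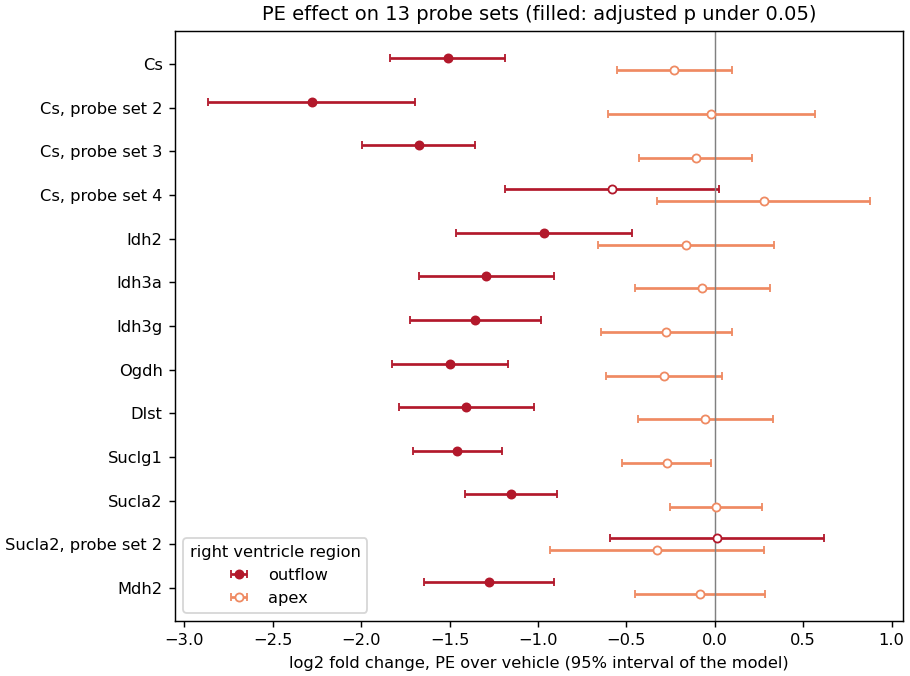
Log2 fold change of PE over vehicle for all 13 probe sets in outflow and in apex, with the 95% interval of the model; filled points passed an adjusted p of 0.05. In outflow 11 of 13 points are filled and lie between -2.28 and -0.97, and in apex none is filled.

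The PE effect itself differed between the regions for 8 of the 9 genes, tested as the outflow effect minus the apex effect, against 10.2% of all genes that were lower in this contrast and 41.2% of the genes with a mean log2 signal above 12. The difference was largest for Dlst at -1.35 ± 0.26 (adjusted p = 0.00169) and smallest among those that passed for Idh3g at -1.08 ± 0.25 (adjusted p = 0.0058). Cs lay between them at -1.28 ± 0.22 (adjusted p = 0.000903) and Suclg1 at -1.18 ± 0.17 (adjusted p = 0.000341). For Cs it became -0.80 with PE outflow replicates 1 and 3 only, and for Idh3g -0.72 without replicates 4 and 5. Idh2 did not pass, at -0.80 ± 0.34 (adjusted p = 0.109). Without PE outflow replicate 2 its difference was -1.11 ± 0.18 (adjusted p = 0.000449), and with the GAPDH ratio as a covariate -1.34 ± 0.28 (adjusted p = 0.00366).

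Within PE rats, outflow was lower than apex for all 9 genes, against 15.5% of all genes and 55.6% of the genes with a mean log2 signal above 12. The log2 differences ran from -1.25 ± 0.18 for Dlst (adjusted p = 4.66e-05) to -0.76 ± 0.24 for Idh2 (adjusted p = 0.0204). Without PE outflow replicate 4 or replicate 5 Idh2 lost its call (-0.62, adjusted p = 0.0672, and -0.59, adjusted p = 0.0708), and on the PE arrays alone its adjusted p was 0.102. Within vehicle rats the differences between outflow and apex were -0.02 to 0.11, and 0 of the 9 had an unadjusted or adjusted p under 0.05 in limma, while 3.71% of all probe sets had an unadjusted p under 0.05 and 0 passed after adjustment. The Cs probe sets 1384201_at and 1369967_at were higher in vehicle outflow than in vehicle apex on every array, an arrangement seen in 0.254% of all probe sets, by log2 differences of 0.32 and 0.30, but did not pass (adjusted p = 1 for both, limma), and the brightest Cs probe set differed there by 0.03. Across the 4 groups the order of means was the same for Cs, Idh2, Idh3a, Idh3g, Ogdh, Dlst, Suclg1 and Mdh2: PE outflow lowest, then PE apex, then vehicle apex, then vehicle outflow, and for these genes only the step above PE outflow passed a test. Sucla2 had PE outflow lowest and its other 3 groups between 13669 and 13949.

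Apex and outflow arrays of the same treatment and number deviated together from their group means, so each number was taken as 1 rat. The titles do not state this pairing. Outflow was below apex in 5 of 5 PE rats for every gene except Idh2, for which it was below in 4 of 5. For those 8 genes all PE outflow arrays also lay below all PE apex arrays, as on 8.64% of all probe sets. Again the share among genes with a mean log2 signal above 12 was not counted. The Cs difference between the regions lay between -1.61 and -0.77 in the PE rats, against -0.08 to 0.12 in the vehicle rats. Idh2 differed by -1.40 to 0.49 in the PE rats, against -0.02 to 0.10 in the vehicle rats. For Suclg1 the PE rats were the tightest of the 9 genes, at -1.44 to -0.94, against -0.04 to 0.09 in the vehicle rats.

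**Figure D3:**
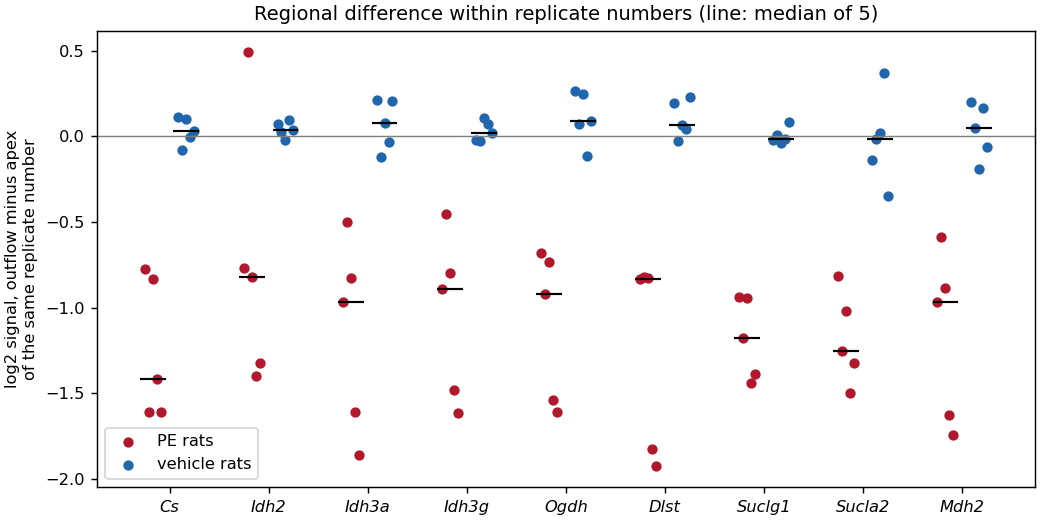
Log2 signal of outflow minus apex for 5 PE rats (left of each pair) and 5 vehicle rats (right), with the median as a line. Each replicate number was taken as 1 rat. PE rats lie below 0 for all genes except 1 rat for Idh2 at 0.49, and vehicle rats lie around 0.

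The PE outflow arrays were not alike. Set against the vehicle outflow mean, the median of the 9 genes was -1.04, -1.01, -1.10, -1.72 and -1.93 on the log2 scale in replicates 1 to 5. Replicates 1 and 3 held all 9 genes within 0.34 and 0.32 log2 units of each other, and replicates 4 and 5 within 0.58 and 0.66. Replicate 2 spread them over 2.19 log2 units, with Cs at -1.92 and Idh2 at 0.27. The 2 arrays with GAPDH ratios in the range of the other groups, replicates 1 and 3, were at -0.79 to -1.32 for every gene. With these 2 arrays alone as PE outflow, all 9 genes fell, by 0.90 (Sucla2) to 1.22 (Suclg1) on the log2 scale. With the GAPDH ratio as a covariate over all arrays the 9 log2 fold changes were -1.59 to -1.08, and all 9 passed. That ratio was 1.70 to 6.12 in PE outflow and 1.38 to 1.83 in the other groups. The covariate thus rests mostly on the PE outflow arrays, and the fit cannot separate RNA quality from the PE effect there. The PE apex arrays were closer to one another, with medians of -0.09 to -0.27.

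**Figure D4:**
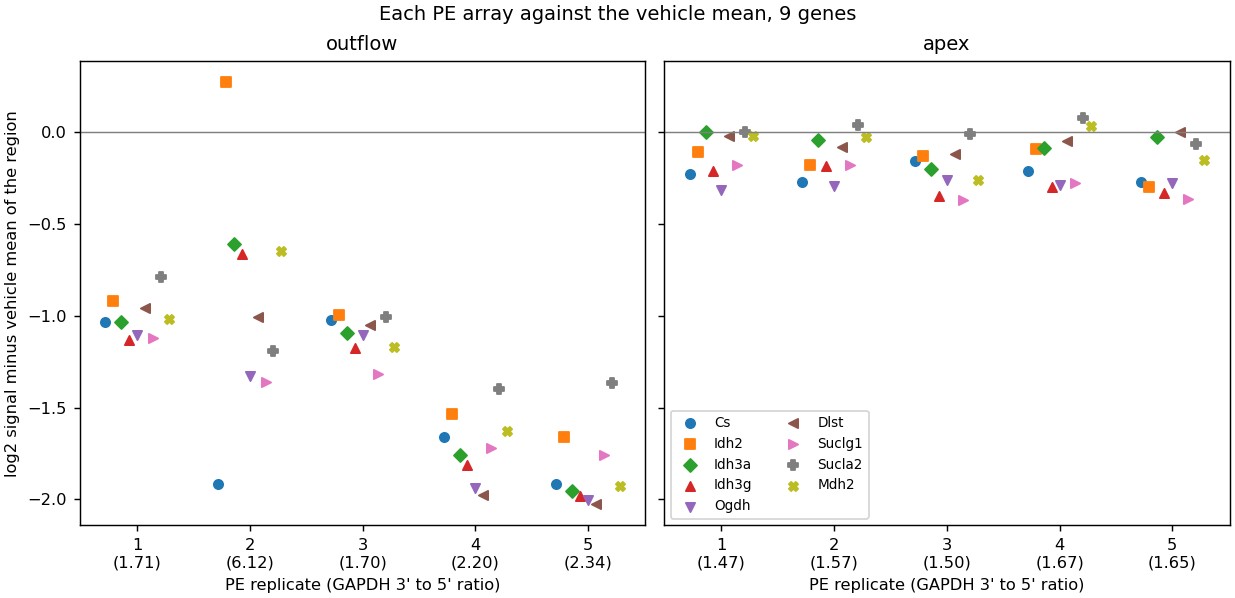
Log2 signal of each PE array minus the mean of the vehicle arrays of its region for the 9 genes, with the GAPDH 3′ to 5′ ratio of each array in brackets. Outflow replicates 1 and 3 place the genes close together near -1.0, replicate 2 scatters them from -1.92 to 0.27, and apex replicates lie between -0.37 and 0.08.

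The brightest probe sets of enzymes that share a complex or a reaction did not always change by the same amount. The part of probe response in these ratios was not tested. The log2 ratio of 2 genes was taken on each array and compared between PE and vehicle, for 9 pairs in both regions, with a two-sided exact permutation test of 5 arrays against 5, which cannot go below p = 0.00794. Of 18 tests 6 reached that p, an adjusted p of 0.0238 over the 18. How often ratios of other gene pairs reach it was not counted, so the 6 cannot be called unusual. Of single probe sets, 34.5% differed between PE and vehicle in outflow and 0.0129% in apex (limma). Suclg1 was lower relative to Sucla2 in PE in both regions: the ratio shifted by -0.30 in outflow and by -0.28 in apex. The mean log2 ratio was -0.35 ± 0.08 in PE outflow and -0.04 ± 0.18 in vehicle outflow, and -0.35 ± 0.08 in PE apex and -0.07 ± 0.19 in vehicle apex (SD, n = 5 each). Without vehicle outflow replicate 5 the outflow shift was -0.22 and lost its call (adjusted p = 0.0572, exact test), and with the dim second Sucla2 probe set the outflow shift was -1.47 (exact p = 0.00794, adjusted p = 0.0635 over the 8 tests with second probe sets) and the apex shift 0.06 (adjusted p = 0.881, exact test). That second probe set read 22 to 47 in PE outflow and 17 to 63 in vehicle outflow, against 5154 to 7876 and 12296 to 14511 for the brightest. In apex it read 6 to 64 in PE and 35 to 47 in vehicle. It is too dim to decide whether the shifts depend on the probe set, so they rest on 1 Sucla2 probe set. In apex Ogdh fell relative to Dlst, by 0.23, and Idh3a rose relative to Idh3g, by 0.20. In outflow the same pairs shifted by -0.09 (adjusted p = 0.352, exact test) and 0.06 (adjusted p = 0.247, exact test).

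Idh2 was higher relative to Idh3a in PE outflow by 0.32, with ratios of 3.23 ± 0.32 in PE outflow and 2.91 ± 0.04 in vehicle outflow. That shift was 0.19 without PE outflow replicate 2, and the call was lost when any 1 vehicle outflow array was left out (adjusted p of 0.0714 to 0.0951, exact test). Idh2 relative to cytosolic Idh1 shifted by -1.17 in outflow and did not pass (adjusted p = 0.102, exact test), but by -1.52 without replicate 2 (adjusted p = 0.0204, exact test). Mdh2 was lower relative to cytosolic Mdh1 in PE outflow by 0.45, with ratios of -1.13 ± 0.15 in PE outflow and -0.68 ± 0.06 in vehicle outflow. The second Mdh1 probe set turned this shift to 0.20 (adjusted p = 0.381, exact test), so its direction depends on the probe set. Idh3a against Idh3b (-0.03), Dlst against Dld (-0.13) and Sucla2 against Suclg2 (-0.17) did not pass in outflow.

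Other genes of the cycle also fell in outflow, where 18% of all genes fell. Of 8 further subunits 7 were measured, and all 7 fell, with a median log2 fold change of -1.26 against -1.35 for the 9 genes and 0.10 for all genes. Idh3b fell by 1.26, Suclg2 by 0.99, Dld, the dihydrolipoamide dehydrogenase shared by several complexes, by 1.28, and the succinate dehydrogenase subunits Sdha and Sdhb by 1.26 and 1.21. Fumarase (Fh) was not analysed here. Among genes of pyruvate entry 10 of 11 fell and 1 rose, with a median of -1.13. The dehydrogenase subunits Pdha1, Pdhb and Pdhx fell by 0.88, 1.30 and 1.09, and the pyruvate carrier subunits Mpc1 and Mpc2 by 1.10 and 1.13. The gene that rose was Pdk3, a kinase that inhibits pyruvate dehydrogenase, at 1.62 ± 0.17 (adjusted p = 6.89e-07). The other kinases Pdk1, Pdk2 and Pdk4 fell by 1.68, 1.71 and 1.53, and these 4 kinases were named after their values were seen.

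Genes that feed or drain the cycle divided. In outflow 9 of 12 fell and 3 rose, with a median of -0.95, while 18% of all genes fell and 26.3% rose. Pyruvate carboxylase (Pc) fell by 0.94, the malic enzymes Me1 and Me3 by 0.96 and 2.06, and glutamate dehydrogenase (Glud1) by 0.56. Those that rose were Me2 at 0.57 ± 0.13 (adjusted p = 0.00219), the mitochondrial phosphoenolpyruvate carboxykinase Pck2 at 1.13 ± 0.18 (adjusted p = 7.09e-05), and ATP citrate lyase (Acly), which takes citrate into lipid synthesis, at 0.96 ± 0.15 (adjusted p = 6.6e-05). Pck2 and Acly were named after their values were seen. Of 5 cytosolic counterparts 2 fell, Got1 by 2.18 and Mdh1 by 0.83, and 3 did not pass, with log2 differences of 0.20 for Idh1, -0.09 for Aco1 and -0.13 for Ireb2. The Mdh1 value is that of its brightest probe set. Among 5 carriers of cycle intermediates the oxoglutarate carrier Slc25a11 and the aspartate and glutamate carriers Slc25a12 and Slc25a13 fell by 1.42, 1.31 and 1.30. The citrate carrier Slc25a1 rose by 0.48 ± 0.18 (adjusted p = 0.0454), and the dicarboxylate carrier Slc25a10 differed by -0.09 (adjusted p = 0.78). In apex 0 of the 40 measured genes of these 5 lists passed in limma. An unadjusted limma p under 0.05 was found for 3 of the 40, against 7.47% of all probe sets.

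The list of membrane and import genes and the list of cardiomyocyte markers had outflow medians closer to 0 than the -1.35 of the 9 cycle genes. All 12 measured genes of the mitochondrial membrane and import machinery fell in outflow, with a median of -0.96, for instance the outer membrane channels Vdac1, Vdac2 and Vdac3 by 1.16, 0.94 and 0.98 and the import receptors Tomm20 and Tomm22 by 0.47 and 0.65. Of 9 measured cardiomyocyte markers 8 fell, with a median of -0.87. In the same comparison 18% of all genes fell, and 58.9% of the genes with a mean log2 signal above 12. The myosin heavy chain Myh6 fell by 0.65, the troponins Tnnt2 and Tnni3 by 0.59 and 0.68, the calcium release channel Ryr2 by 1.50 and phospholamban (Pln) by 0.94. The markers ran from -1.50 to -0.44, which overlaps the -1.51 to -0.97 of the 9 cycle genes. For Myh6, Tnnt2 and Tnni3 1 PE outflow array lay above all vehicle outflow arrays, while for Ryr2 and Pln every PE array lay below them. On each array the median log2 signal of the 9 cycle genes minus that of the cardiomyocyte markers was -2.69 to -1.44 in PE outflow, against -1.28 to -0.97 in vehicle outflow, and the ranges did not overlap. The same quantity was -1.40 to -1.11 in PE apex, against -1.27 to -1.08 in vehicle apex. Set against the membrane and import genes, the median of the 9 was 0.54 to 1.16 in PE outflow, against 1.50 to 1.71 in vehicle outflow, again without overlap. Of single probe sets, 9.98% had all PE outflow arrays below all vehicle outflow arrays. How often differences between other gene lists separate in this way was not counted.

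**Figure D5:**
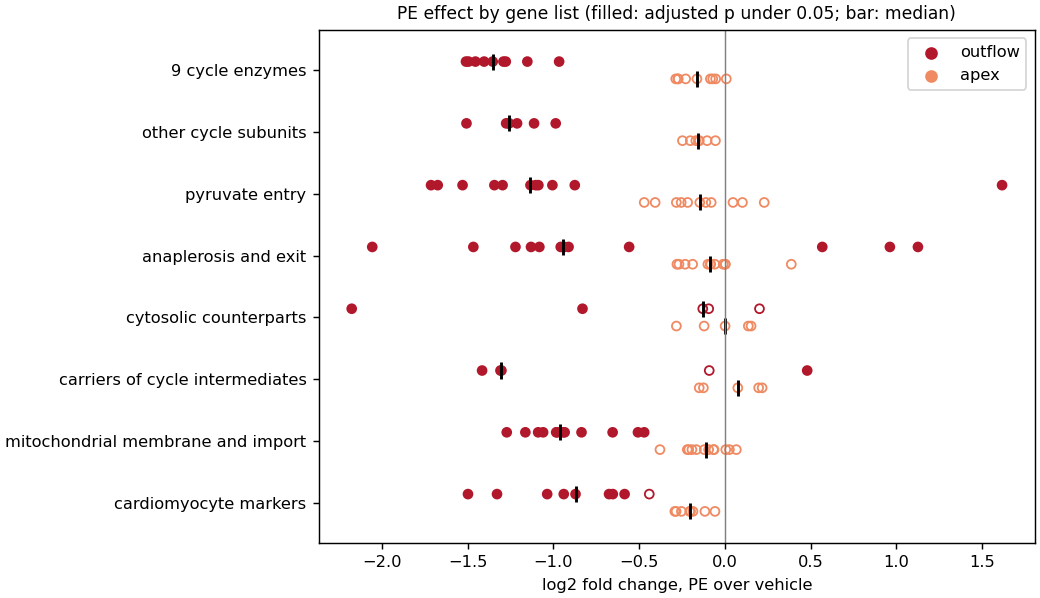
Log2 fold change of PE over vehicle by gene list in outflow and apex, 1 point per gene, filled where the adjusted p was under 0.05, with the median as a bar. The 9 cycle enzymes have an outflow median of -1.35, the lowest of the 8 lists drawn, and no point is filled in apex.

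Markers of other cells mostly rose on the same arrays, as did 26.3% of all genes. In outflow 9 of 10 fibroblast markers rose (median 1.42), with a summed signal of 167728 to 191787 in PE outflow, against 68895 to 98957 in vehicle outflow. All 8 macrophage markers rose (median 1.31; sums of 15144 to 36565 in PE outflow, against 9863 to 15428 in vehicle outflow), as did all 4 smooth muscle markers (median 2.52; sums of 15454 to 38495, against 3357 to 6085). The 3 measured cartilage markers rose too, with sums of 529 to 5170 in PE outflow, against 61 to 141 in vehicle outflow. Adipocyte markers divided, with 4 of 6 higher and 1 lower (median 2.55). Adipoq, Plin1 and Cfd rose by 3.15, 3.45 and 1.96, Lep did not pass (-0.16), and Fabp4 fell by 0.71. The adipocyte sums nonetheless overlapped, at 10659 to 15733 in PE outflow, against 9363 to 16650 in vehicle outflow. Of 5 endothelial markers 2 rose and 1 fell, with sums of 17290 to 19681 in PE outflow, against 9493 to 13661 in vehicle outflow. Atrial markers rose in 1 of 3, with sums of 1392 to 11584 in PE outflow, against 1603 to 3726 in vehicle outflow. The summed cardiomyocyte markers were 141901 to 393570 in PE outflow, against 320062 to 391657 in vehicle outflow, while the sum of the 9 cycle genes was 50363 to 115291, against 165306 to 189129. No marker was listed at 0 in any group, and the lowest single cardiomyocyte marker signal was 3938. In apex 0 of the 39 markers of other cells and 0 of the 9 cardiomyocyte markers passed in limma. An unadjusted limma p under 0.05 was found for 16 of the 39 and 0 of the 9, against 7.47% of all probe sets. Summed fibroblast markers were 93538 to 120204 in PE apex, against 83661 to 93030 in vehicle apex, and summed macrophage markers 13672 to 18110 in PE apex, against 8068 to 12876 in vehicle apex. Smooth muscle sums overlapped in apex, at 3580 to 8623 in PE and 2766 to 8260 in vehicle. Summed cardiomyocyte markers were 283320 to 326930 in PE apex, against 329120 to 381357 in vehicle apex, so these sums, like the signals of Cs, Idh3g, Ogdh and Suclg1, did not overlap. The part of these cells in the levels of the cycle genes was not tested.

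The genes whose profile over the 20 arrays was most like the median of the 9 were all mitochondrial. Likeness was the root mean square difference of log2 signals after each profile was centred, over 8120 genes that are not members and had a mean log2 signal above 8, for which the median was 0.641. The closest was Slc25a11 at 0.0659, followed by the respiratory chain subunit Ndufa8 at 0.0737, Sdhb at 0.0817, Ndufs8 at 0.0863, the mitochondrial ribosomal protein Mrpl15 at 0.0882, Sdha at 0.0911, Pdhb at 0.0929 and Mrpl40 at 0.0933. Among the 9 themselves the distance from their common median was 0.0925 for Dlst, 0.208 for Cs and 0.280 for Idh2, the widest. These 8 genes were chosen by their profile over the same 20 arrays, which fixed that they would follow the 9 genes, and as a description their log2 differences of PE from vehicle in outflow ran from -1.45 (Ndufs8) to -1.21 (Sdhb).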

How the data were processed

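RNA of 20 right ventricle samples had been labelled (5 microgram of total RNA each) and hybridised, 1 sample per array. The authors deposited linear signal intensities, 1 per probe set and array, per the labels. How the software was set is not given in the sources used here. All arrays shared a mean of 500.2 after trimming 2% at either end. Of 31099 probe sets, 57 controls were left out of the tests. The platform annotation gave 1 symbol for 20826 probe sets, several for 436 and none for 9780, and 20758 matched the current gene table by Entrez identifier (0 symbols updated). For each gene its brightest probe set stood for it. A planned enzyme pair is not reported here.

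Signals were taken to log2 after adding 16. A model of the 4 groups was fitted over 20 arrays with limma 3.58.1 (R 4.3.3, eBayes), two-sided, with Benjamini-Hochberg adjustment over 31042 probe sets. Fold changes are on the log2(signal + 16) scale. The model was tested on simulated data in which every group had the spread of the vehicle apex arrays. That test did not cover the wider spread of PE outflow or the pairing of arrays by rat. The number of arrays limits the precision.

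All members were named, and up to 5 genes of each other list in list order. The members and lists were chosen with earlier results of these data known. Same-numbered arrays of the 2 regions correlated in their deviations within PE (0.18 to 0.28) and within vehicle (0.18 to 0.28) over 12310 probe sets, and all 5 numbers of either treatment correlated best with their own. So the number was taken to mark a rat for outflow against apex, which the titles do not state. Between PE and vehicle the number was not taken as a link (outflow -0.28 to 0.10). Alternatives changed the scaling, added value, filter, arrays, variance model, array weights, GAPDH covariate, replicate block, left-out arrays and probe sets.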

Additional observations from a re-analysis of the deposited data

Results flagged for a closer look

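Among 52 groups of 5 arrays (13 probe sets in 4 groups), 3 held an array far from the others, and chance alone flags about 1 in 20 groups. For Idh2, PE outflow replicate 2 read 53159, against 13889 to 23296 in the other 4 PE outflow arrays. The GAPDH ratio of that array was 6.12, and its part in the value was not tested. Vehicle outflow replicate 5 read 10501 for Dlst, against 8103 to 8758 in the other 4 vehicle outflow arrays. The same array read 7366 on the second Cs probe set (1384201_at), against 6271 to 6410 in the others.

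The PE effect differed between the regions in a test of the difference itself, outflow effect minus apex effect on the log2 scale, for 8 genes on 10 probe sets. For Cs the difference was -1.28 on the brightest probe set (1375295_at), -2.26 on 1384201_at and -1.57 on 1369967_at. Among the dehydrogenases it was -1.22 for Idh3a, -1.08 for Idh3g and -1.21 for Ogdh. It was -1.35 for Dlst, -1.18 for Suclg1, -1.16 for Sucla2 (1388975_at) and -1.19 for Mdh2.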

How the results depend on the processing

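The count of the 9 genes that fell in outflow was 9 in every setting except without PE outflow replicates 4 and 5 (8, added after seeing the data). It was 0 in apex and 0 between the regions in vehicle rats in every setting, 8 or 9 for the difference between regions and 8 or 9 in PE rats, and it was 9 in outflow, 0 in apex, 8 for the difference and 9 in PE rats under the replicate block, rat as random block, so the paired fit changed none of these counts. Idh2 decided each change. Its regional difference passed with arrays centred on their median (-0.92), array weights (-0.96), the GAPDH covariate (-1.34) and PE outflow replicates 1 and 3 only (-0.79).

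The number of all probe sets called in apex was 4, and 1 to 31 in the other settings (1 with the number as a replicate block over all groups, 31 with array weights). The called probe sets in outflow divided into 6083 that rose and 4637 that fell (43.3% fell), 5177 and 5367 under quantile normalisation (50.9%) and 4415 and 5966 with centring (57.5%), which moved the median of all probe sets by -0.13. The 9 genes fell under each.

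Signs turned in several differences that had not passed and in 2 called ratios. Under quantile normalisation the dim Sucla2 probe set in outflow was at -0.0544, Idh2 in apex at 0.0142 and Mdh2 in apex at 0.0418. With centring the dim Sucla2 set was at -0.12 and Sucla2 in apex at -0.0141. The dim set was at -0.0107 adding 64, -0.0807 with array weights and -0.0908 with the GAPDH covariate. Between regions in vehicle rats Suclg1 was at -0.00992 with array weights and Cs at -0.00621 with the GAPDH covariate. Idh3a against Idh3b in outflow was at 0.00368 with PE outflow replicates 1 and 3 only. With the second probe set the called ratios Mdh2 against Mdh1 in outflow (-0.448) and Suclg1 against Sucla2 in apex (-0.281) were at 0.203 and 0.0561. Sucla2 against Suclg2, which had not passed, was at 0.999 in outflow (-0.165 with the brightest set) and -0.224 in apex. The second Sucla2 probe set is the dim one, so the turns of the Sucla2 ratios cannot be read as a property of the gene. Leaving out each array in turn gave ranges that span 0 for the dim Sucla2 probe set in outflow (-0.138 to 0.182), Sucla2 in apex (-0.0671 to 0.0569), the regions of vehicle rats for Suclg1 (-0.0393 to 0.0400), Sucla2 (-0.0962 to 0.0278) and Mdh2 (-0.00364 to 0.0774), Idh3a against Idh3b in outflow (-0.0669 to 0.0389) and Dlst against Dld in outflow (-0.409 to 0.0139) and apex (-0.0726 to 0.0442).

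The dim Cs probe set (1396453_at) passed in outflow with array weights (-0.79, adjusted p = 0.0331) and without PE outflow replicate 1 (-0.83, adjusted p = 0.019). With 2 PE outflow arrays against 5 the exact permutation test cannot reach the threshold, so the 3 called outflow pairs could not pass there: Suclg1 against Sucla2 was at -0.318 and Mdh2 against Mdh1 at -0.344, while Idh2 against Idh3a was at 0.11, against 0.325 with all 5 arrays. The cause of the other changes was not tested.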
